A study of Mus musculus with 24 samples.

Results

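Ion channel genes were read out in 24 heart libraries as the 142 genes whose symbol starts with Kcn, Cacn or Hcn, or with Scn followed by a number, of 24421 genes counted. Of these, the 79 with a mean of at least 0.5 CPM (the count of a gene scaled to a common library total) over the 24 libraries are described: 51 of 98 Kcn genes, 16 of 26 Cacn genes, 9 of 14 Scn genes and 3 of 4 Hcn genes. The members were chosen by this measured mean level and by name, and by no difference between genotypes. Just inside the threshold lay Cacna1e at 0.519 CPM and Kcnn4 at 0.540 CPM, and just outside it lay Kcnh1 at 0.456 CPM. A symbol does not always name a pore: the Kcnip, Kcnab and Kcne genes encode accessory proteins, Kcnrg a channel regulator, and Kcnq1ot1 and Kcnd3os are long non-coding RNAs.

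The hearts came from male mice of 14 weeks on chow, on a mixed strain that was mostly C57BL/6N with some 129, and the study examined defects of mitochondrial long-chain fatty acid oxidation. Acadl and Acadvl encode long-chain and very-long-chain acyl-CoA dehydrogenase, which catalyse the opening step of the pathway. The 6 genotypes were Acadl wt / Acadvl wt (4 libraries, called wild type here), Acadl Het / Acadvl wt (4), Acadl Het / Acadvl Het (3), Acadl Het / Acadvl KO (4), Acadl KO / Acadvl wt (4) and Acadl KO / Acadvl Het (5). Every Acadvl KO heart was thus also labelled Acadl Het, and no group carried both knockouts. The labels do not state whether the hearts of a group came from separate mice. The p-values therefore cover the spread from library to library, which may be technical.

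Reads of the targeted genes were read first. Acadvl measured 1577 ± 19.3 CPM (SD, n = 4) in wild type, 1632 ± 82.5 CPM (SD, n = 4) in Acadl Het / Acadvl wt, 1079 ± 41.9 CPM (SD, n = 3) in Acadl Het / Acadvl Het and 599 ± 121 CPM (SD, n = 4) in Acadl Het / Acadvl KO, and so followed the Acadvl labels within Acadl Het. It measured 2115 ± 258 CPM (SD, n = 4) in the libraries labelled Acadl KO / Acadvl wt and 1429.6 ± 178 CPM (SD, n = 5) in those labelled Acadl KO / Acadvl Het. Of the latter, replicate 1 stood above every wild-type library in Acadvl. Acadl went against its labels, with 1358 ± 42.0 CPM (SD, n = 4) in wild type, 1549 ± 99.8 CPM (SD, n = 4) in Acadl Het / Acadvl wt, 1894 ± 167 CPM (SD, n = 4) in the libraries labelled Acadl KO / Acadvl wt and 1887 ± 46.3 CPM (SD, n = 5) in those labelled Acadl KO / Acadvl Het. The sources used here do not give the altered part of Acadl, so its reads are no check of the deletion, and each direction drawn for Acadl below rests on the label.

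The results rest on 4 comparisons. The wild-type comparison sets Acadl KO / Acadvl wt against wild type. The heterozygote comparison sets the mean of both genotypes labelled Acadl KO against the mean of Acadl Het / Acadvl wt and Acadl Het / Acadvl Het, 9 libraries against 7. The Acadvl comparison sets Acadl Het / Acadvl KO against Acadl Het / Acadvl wt. The knockout-to-knockout comparison sets Acadl KO / Acadvl wt against Acadl Het / Acadvl KO. The wild-type and Acadvl comparisons have no library in common, while the others share knockout or heterozygous libraries with them, so their values stand side by side only. All come from 1 edgeR quasi-likelihood fit over 15804 genes with RNA isolation batch as a term, and a gene is called at a Benjamini-Hochberg adjusted p under 0.05. All 79 members entered the fit. Levels are CPM over library totals scaled by TMM factors, and changes are log2 fold changes with their standard error (SE).

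In a heart muscle cell, sodium channels start the action potential, L-type calcium channels hold its plateau and trigger contraction, and several potassium currents end it. The transient outward current runs through Kv4 channels, delayed currents run through several other Kv channels, and inward rectifiers of the Kir2 family hold the resting potential. G-protein-gated Kir3 channels slow the atria and nodes under vagal tone, ATP-sensitive Kir6 channels couple excitability to the energy state of the cell, and Hcn and T-type calcium channels serve pacemaking. Pore proteins assemble with auxiliary subunits that set their surface number and gating, so both kinds of gene are given for each current.

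The starts of 4 members are printed as a reference for the changes below: Kcnc1 and Kcnj4, which lay higher in the KO-labelled hearts, and Kcnj3 and Cacng6, which lay lower. Kcnj4 was picked for display after its values were seen. Each line holds the 250 bases before the start of the RefSeq transcript, 5′ to 3′ on the strand of the gene, with CG dinucleotides in capitals, in the build GRCm38.p6 (mm10). Their positions are chr7:46396218-46396467 on the plus strand for Kcnc1, chr15:79505242-79505491 on the minus strand for Kcnj4, chr2:55435720-55435969 on the plus strand for Kcnj3 and chr7:3424412-3424661 on the plus strand for Cacng6.
Kcnc1: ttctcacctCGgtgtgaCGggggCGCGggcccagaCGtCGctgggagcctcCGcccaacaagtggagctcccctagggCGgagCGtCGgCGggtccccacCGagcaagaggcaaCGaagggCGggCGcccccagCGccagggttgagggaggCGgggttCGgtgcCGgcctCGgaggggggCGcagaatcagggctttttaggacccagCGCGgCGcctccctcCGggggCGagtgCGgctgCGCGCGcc
Kcnj4: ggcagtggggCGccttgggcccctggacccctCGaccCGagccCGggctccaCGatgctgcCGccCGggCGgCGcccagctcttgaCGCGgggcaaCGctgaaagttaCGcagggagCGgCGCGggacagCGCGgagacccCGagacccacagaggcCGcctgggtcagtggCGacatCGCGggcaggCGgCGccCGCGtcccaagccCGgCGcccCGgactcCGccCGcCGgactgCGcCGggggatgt
Kcnj3: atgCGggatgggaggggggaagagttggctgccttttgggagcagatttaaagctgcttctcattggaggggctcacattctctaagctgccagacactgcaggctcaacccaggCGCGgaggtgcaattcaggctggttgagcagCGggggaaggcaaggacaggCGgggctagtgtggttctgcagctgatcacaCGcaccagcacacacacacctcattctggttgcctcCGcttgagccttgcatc
Cacng6: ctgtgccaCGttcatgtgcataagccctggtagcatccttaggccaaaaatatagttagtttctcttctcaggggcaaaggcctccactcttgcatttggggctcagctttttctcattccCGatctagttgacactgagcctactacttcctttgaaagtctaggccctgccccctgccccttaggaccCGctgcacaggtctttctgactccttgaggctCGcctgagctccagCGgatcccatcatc
The Kcnc1 stretch held 30 CG dinucleotides at 74.4% GC and the Kcnj4 stretch 35 at 77.2% GC. By contrast, Kcnj3 held 7 at 58.4% GC and Cacng6 held 5 at 52.8% GC. RefSeq promoters were matched for 57 of the 79 members, and their median was 8 CG dinucleotides (range 0 to 37), beside 6 over all 32851 promoters of the table. Of the 57 starts, 45 lay within 100 bases of the start of the gene as counted. Those of Kcnj12 and Kcnh2 lay 43240 and 22013 bases away, and both are kept in the medians and motif counts. The 5 matched members called higher in the wild-type comparison had a median of 12 and the 16 called lower 13.5. In the heterozygote comparison the 8 called higher had a median of 7.5 and the 22 called lower 9.5, and in the Acadvl comparison the 5 called higher had 26 and the 11 called lower 14. The order of rising and falling members thus differed between comparisons, and it was not tested. The search covered 7 motifs on both strands of the 300 bases from 250 before to 50 after the start. The C/EBP-ATF element TGATGNAA was present in 2 of 57 members (Hcn4 and Kcnab1, 3.51%) and in 3.97% of all promoters. The antioxidant response element TGACNNNGC was present in 10 of 57 (17.5%) and in 12.4% of all, and the E-box CACGTG in 5 of 57 (8.77%) and in 7.15% of all. The cyclic AMP response element TGACGTCA was present in 0 of 57 members and in 1.79% of all promoters. The binding motif of the GATA factors, spelled AGATAA, was present in 3 of 57 members and in 11.2% of all. The ERR element TCAAGGTCA was present in 1 of 57 and in 0.423% of all, and the letters TATAAA in 2 of 57 and in 13.6% of all. None of the 7 was in the windows of the 4 genes printed, which says only that these letters are not there.

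Across the members, falls outnumbered rises in the 3 comparisons with many calls. In the wild-type comparison 30 of 79 were called, 8 higher and 22 lower, where 37.2% of all genes were called (19.6% higher and 17.6% lower). In the heterozygote comparison 42 were called, 11 higher and 31 lower, beside 54.7% of all genes (26.7% higher and 27.9% lower). In the Acadvl comparison 28 were called, 10 higher and 18 lower, beside 24.4% of all genes (12.9% higher and 11.5% lower). The share of members called was thus near that of all genes in the first 2 comparisons, 38.0% and 53.2%, and was 35.4% in the Acadvl comparison. Libraries of the compared sets did not overlap for 9 members higher and 25 lower in the wild-type comparison (18.1% and 17.7% of all genes), 3 and 15 in the heterozygote comparison (10.4% and 7.92%) and 8 and 18 in the Acadvl comparison (11.7% each way). The median log2 change of the members was -0.30, -0.15 and -0.06 in these comparisons, beside -0.02, -0.02 and 0.02 for all genes tested. Of the 25 members that carry or shape the main currents of heart muscle, 2 rose and 11 fell in the wild-type comparison, 2 rose and 11 fell in the heterozygote comparison, and 4 rose and 10 fell in the Acadvl comparison. All counts include Kcnj4, which averaged under 0.5 CPM in each genotype without a KO label, and Kcna4, which averaged under 0.5 CPM in each genotype with one. Each met the threshold through 1 side only and is described without a test. Other members averaged under 0.5 CPM in some but not all genotypes with a KO label. Among them, these genotype means ran from 0.193 to 0.632 CPM for Cacng6, 0.331 to 0.660 for Kcnq5 and 0.356 to 0.698 for Kcnrg. For Kcnn4 the means ran from 0.279 to 0.864 CPM. Their tests are given with this limit: where the lower side was a genotype under 0.5 CPM, only the other side met the threshold.

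The members together took a small part of the counts. It was 0.335% ± 0.0165 (SD, n = 4) in wild type, 0.326% ± 0.0217 (SD, n = 4) in Acadl Het / Acadvl wt, 0.307% ± 0.0357 (SD, n = 3) in Acadl Het / Acadvl Het, 0.304% ± 0.0073 (SD, n = 4) in Acadl Het / Acadvl KO, 0.274% ± 0.0117 (SD, n = 4) in Acadl KO / Acadvl wt and 0.277% ± 0.00825 (SD, n = 5) in Acadl KO / Acadvl Het. In Acadl Het / Acadvl Het, replicate 1, with 17.3% of its counts in Rn45s, held 0.265%, while replicates 2 and 3 held 0.327% and 0.328%. The 6 most abundant members made up 60.2% to 72% of member counts in the genotypes. Per length, in TPM, a length-corrected level that sums to the same total in every library, averaged over the 24 libraries, levels were high for Kcnip2 at 216, Kcnk3 at 193, Kcnj11 at 143, Cacna1c at 86.7, Kcng2 at 71.7 and Cacna2d1 at 57.2. Among these 6, only Cacna2d1 and Kcng2 were called in each of the 3 comparisons.

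**Figure D1:**
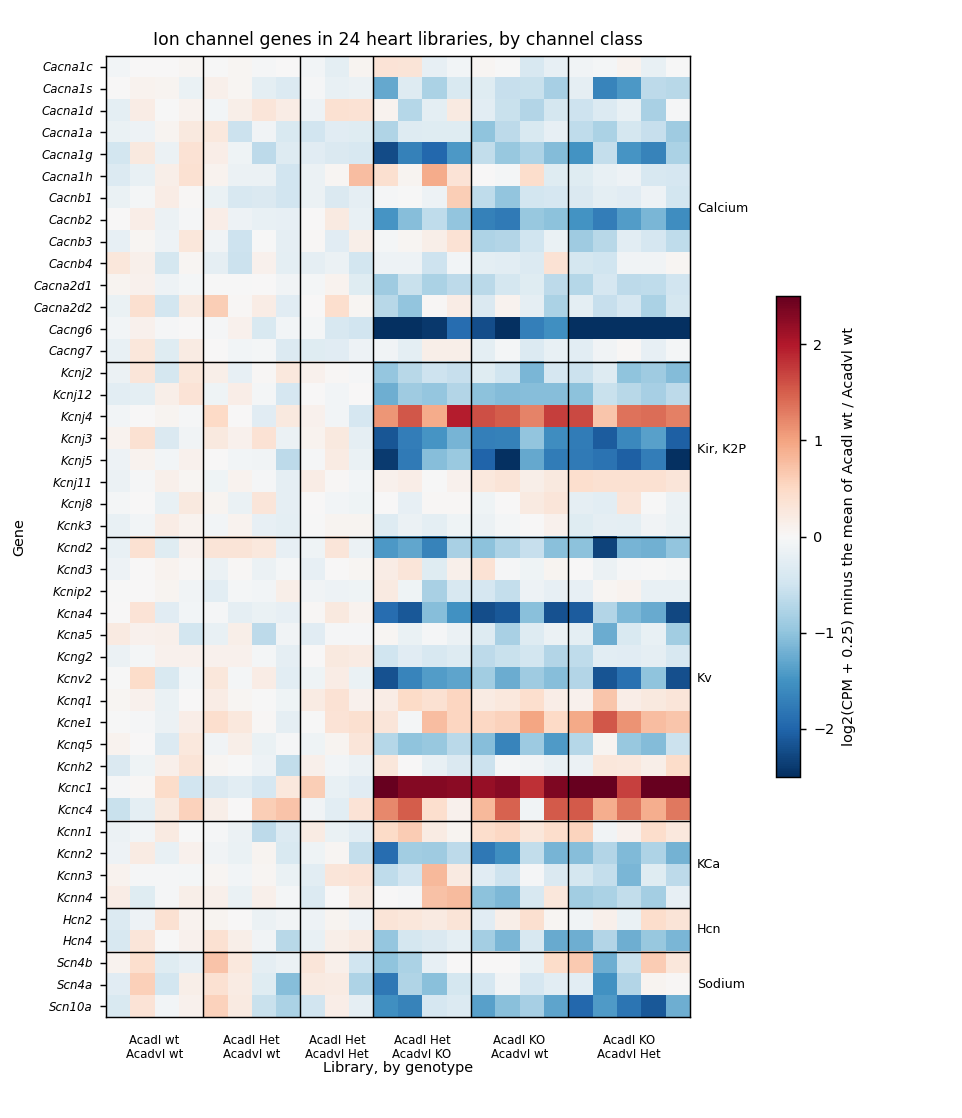
Level of 44 ion channel genes (rows, by channel class) in the 24 libraries (columns, by genotype), as log2(CPM + 0.25) minus the mean of the 4 wild-type libraries. The columns of the 3 genotypes with a KO label share the low rows Kcnj3, Kcnj5, Cacnb2, Cacng6 and Kcna4 and the high rows Kcnc1 and Kcnj4.

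Cacnb2, Cacna2d1 and Cacng6, auxiliary subunits of calcium channels, fell in all 3 comparisons, while no change was called for Cacna1c. Cacna1c, the pore of the cardiac L-type channel and the most abundant member by count, ranged from 557 to 604 CPM in wild type, 571 to 603 in Acadl Het / Acadvl wt, 505 to 738 in Acadl Het / Acadvl KO and 445 to 604 in Acadl KO / Acadvl wt. Its log2 changes of -0.14, -0.06 and 0.10 in the wild-type, heterozygote and Acadvl comparisons were not called, and its libraries overlapped. In bulk tissue, fewer cells of a type and less RNA per cell cannot be told apart, here and below.

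Cacnb2 (chr2:14604306-14987908, plus strand, mm10) encodes the beta subunit that brings the L-type pore to the membrane of heart muscle. Cacnb2 measured 63.4, 70.4, 56.6 and 61.1 CPM in wild type, 69.9, 57.1, 55.3 and 54.0 in Acadl Het / Acadvl wt and 62.8, 73.8 and 55.3 in Acadl Het / Acadvl Het. For Cacnb2, the KO-labelled values were 22.5, 29.9, 40.5 and 31.6 CPM in Acadl Het / Acadvl KO, 19.3, 18.2, 32.3 and 30.5 in Acadl KO / Acadvl wt and 22.2, 18.6, 23.6, 28.1 and 21.2 in Acadl KO / Acadvl Het. The lowest library without a KO label stood at 54.0 CPM and the highest with one at 40.5 CPM, so the 2 sets did not overlap. Cacnb2 changed by -1.33 (SE 0.19, adjusted p = 2.16e-05) in the wild-type comparison, -1.36 (SE 0.13, adjusted p = 7.48e-08) in the heterozygote comparison and -0.93 (SE 0.18, adjusted p = 0.00108) in the Acadvl comparison.

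Cacna2d1, the alpha2-delta subunit that raises channel density, fell with it. It ranged from 218 to 256 CPM in wild type and from 225 to 239 in Acadl Het / Acadvl wt, and from 129 to 161 in Acadl Het / Acadvl KO and 149 to 193 in Acadl KO / Acadvl wt. The log2 change was -0.53 (SE 0.09, adjusted p = 0.00017), -0.50 (SE 0.07, adjusted p = 2.86e-06) and -0.72 (SE 0.09, adjusted p = 1.72e-05) in the same order of comparisons.

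Cacng6 (chr7:3424662-3434940, plus strand, mm10), whose start is printed above, encodes a gamma subunit of striated muscle. Among the called members with a mean of at least 1 CPM, it showed the largest fall in the wild-type, heterozygote and Acadvl comparisons. Cacng6 measured 2.97, 3.39, 3.05 and 3.18 CPM in wild type, 3.07, 3.41, 2.34 and 2.97 in Acadl Het / Acadvl wt and 3.04, 2.33 and 2.20 in Acadl Het / Acadvl Het. For Cacng6, the KO-labelled values were 0.171, 0.0802, 0.388 and 0.659 CPM in Acadl Het / Acadvl KO, 0.480, 0.344, 0.782 and 0.923 in Acadl KO / Acadvl wt and 0.144, 0.0755, 0.170, 0.260 and 0.312 in Acadl KO / Acadvl Het. Every library with a KO label lay below 1 CPM and every other library at or above 2.20 CPM, with no overlap. Its changes were -2.28 (SE 0.28, adjusted p = 4.94e-06), -2.95 (SE 0.23, adjusted p = 4.18e-09) and -3.14 (SE 0.32, adjusted p = 1.19e-06). At these levels the KO-labelled values rest on few reads.

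**Figure D2:**
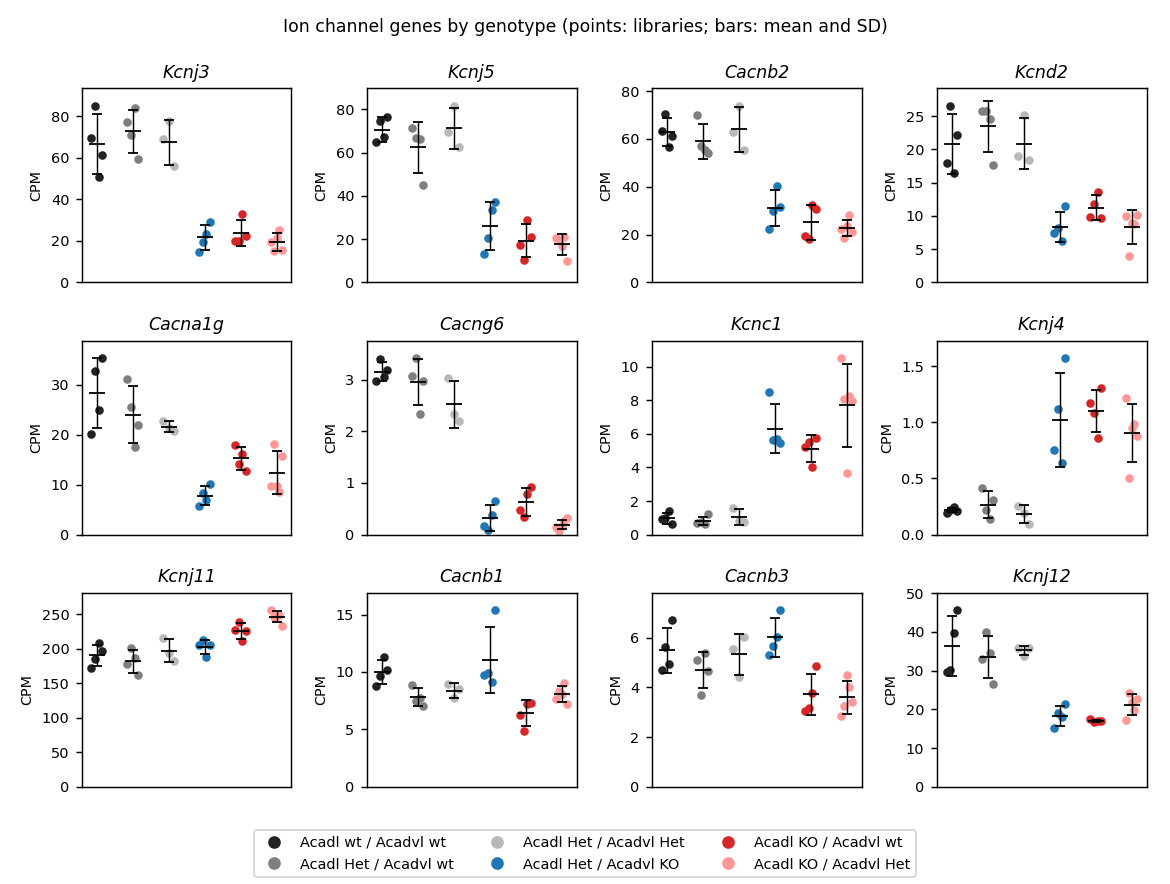
CPM (TMM-scaled) of 12 ion channel genes in the 6 genotypes, 1 point per library, with mean and SD. Kcnj3, Kcnj5, Cacnb2, Kcnd2 and Cacng6 lie lower and Kcnc1 and Kcnj4 higher in the 3 genotypes with a KO label. By their means, Cacnb1 and Cacnb3 are lower in Acadl KO / Acadvl wt than in wild type. Both are higher in Acadl Het / Acadvl KO than in Acadl Het / Acadvl wt. Their Acadl Het / Acadvl KO libraries overlap with those of wild type.

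Of the other beta subunits, Cacnb1 and Cacnb3 moved in opposite directions in the 2 knockouts, each set against a different reference. Cacnb1 measured 8.78, 9.66, 11.3 and 10.2 CPM in wild type, 8.89, 7.51, 7.72 and 7.02 in Acadl Het / Acadvl wt and 8.95, 7.69 and 8.48 in Acadl Het / Acadvl Het. For Cacnb1, the KO-labelled values were 9.77, 9.89, 9.13 and 15.4 CPM in Acadl Het / Acadvl KO, 6.29, 4.87, 7.21 and 7.32 in Acadl KO / Acadvl wt and 7.68, 8.33, 8.10, 9.03 and 7.19 in Acadl KO / Acadvl Het. In the wild-type comparison Cacnb1, the main beta subunit of skeletal muscle, changed by -0.59 (SE 0.14, adjusted p = 0.00238), and all 4 Acadl KO / Acadvl wt libraries lay below all wild-type ones. In the Acadvl comparison it changed by 0.53 (SE 0.14, adjusted p = 0.00725), and all 4 Acadvl KO libraries lay above those of Acadl Het / Acadvl wt. That second call rests on Acadl Het / Acadvl KO replicate 4, the highest of all libraries, without which the adjusted p was 0.0607. The other libraries of that genotype lay inside the wild-type range of 8.78 to 11.3 CPM. The 2 references differ in level, 9.98 ± 1.05 CPM (SD, n = 4) in wild type against 7.78 ± 0.793 CPM (SD, n = 4) in Acadl Het / Acadvl wt, a change of -0.36 (SE 0.14, adjusted p = 1) that was not called. The direct test between the knockouts gave -0.77 (SE 0.14, adjusted p = 0.00463), with no overlap. This call was kept when each library was left out in turn, but it was lost in batch 1 alone and in batch 2 alone, with only the genotypes compared in the fit, and without the libraries above 10 CPM of Alb.

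Cacnb3, a beta subunit known best from nerve and smooth muscle, had the same pattern at a lower level. Cacnb3 measured 4.68, 5.62, 4.95 and 6.71 CPM in wild type, 5.10, 3.71, 5.37 and 4.64 in Acadl Het / Acadvl wt and 5.54, 4.42 and 6.02 in Acadl Het / Acadvl Het. For Cacnb3, the KO-labelled values were 5.29, 5.67, 6.02 and 7.10 CPM in Acadl Het / Acadvl KO, 3.06, 3.18, 3.78 and 4.85 in Acadl KO / Acadvl wt and 2.83, 3.25, 4.51, 4.01 and 3.41 in Acadl KO / Acadvl Het. It changed by -0.50 (SE 0.15, adjusted p = 0.0125) in the wild-type comparison, 0.42 (SE 0.15, adjusted p = 0.0446) in the Acadvl comparison and -0.70 (SE 0.15, adjusted p = 0.0144) between the knockouts. The sets overlapped in the first 2 of these and did not in the third. The Acadvl call was lost in 6 of 8 leave-one-out fits (adjusted p up to 0.146), and the wild-type call was lost without Acadl KO / Acadvl wt replicate 1 and without wild-type replicate 2 (adjusted p up to 0.0604). The call between the knockouts was lost without Acadl KO / Acadvl wt replicate 1 or 2 (adjusted p up to 0.0611).

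The beta subunit mix was computed per length as shares of the summed TPM of Cacnb1 to Cacnb4. Cacnb2 took 74.8% ± 2.61 (SD, n = 4) in wild type, 77.5% ± 1.83 (SD, n = 4) in Acadl Het / Acadvl wt, 77.1% ± 4.004 (SD, n = 3) in Acadl Het / Acadvl Het, 57.3% ± 6.89 (SD, n = 4) in Acadl Het / Acadvl KO, 63.3% ± 3.69 (SD, n = 4) in Acadl KO / Acadvl wt and 58.8% ± 2.74 (SD, n = 5) in Acadl KO / Acadvl Het. The summed beta subunit TPM was 43.9 ± 3.84 (SD, n = 4) in wild type, 28.1 ± 5.46 (SD, n = 4) in Acadl Het / Acadvl KO and 19.1 ± 5.51 (SD, n = 4) in Acadl KO / Acadvl wt. Cacnb2 thus remained the most abundant beta subunit in each genotype at a lower share. Shares were not tested.

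T-type calcium channels, which open at low voltage and are known from the nodes and the developing or stressed ventricle, differed by paralog. Cacna1g measured 20.1, 32.7, 25.0 and 35.3 CPM in wild type, 31.1, 25.4, 17.5 and 21.9 in Acadl Het / Acadvl wt and 22.7, 21.3 and 20.7 in Acadl Het / Acadvl Het. For Cacna1g, the KO-labelled values were 5.68, 8.39, 6.91 and 10.1 CPM in Acadl Het / Acadvl KO, 17.98, 14.1, 16.1 and 12.8 in Acadl KO / Acadvl wt and 9.68, 18.2, 9.78, 8.49 and 15.8 in Acadl KO / Acadvl Het. Cacna1g (chr11:94408391-94474198, minus strand, mm10) fell by 0.91 (SE 0.24, adjusted p = 0.00535) in the wild-type comparison, 0.73 (SE 0.17, adjusted p = 0.00109) in the heterozygote comparison and 1.63 (SE 0.24, adjusted p = 8.23e-05) in the Acadvl comparison. The wild-type and heterozygote calls were lost without the libraries above 10 CPM of Alb, and the wild-type call also in batch 2 alone. Without those Alb libraries the heterozygote comparison holds only Acadl KO / Acadvl wt against Acadl Het / Acadvl wt. The Acadl Het / Acadvl KO libraries were the lowest set and lay below every Acadl KO / Acadvl wt library. The direct test gave 0.97 (SE 0.24, adjusted p = 0.0308), the single member called higher in the knockout-to-knockout comparison, and it was lost in 4 of 8 leave-one-out fits (adjusted p up to 0.0994). Cacna1h, the other T-type pore expressed here, was not called in the wild-type (0.03) or heterozygote comparison (-0.17). It changed by 0.64 (SE 0.21, adjusted p = 0.033) in the Acadvl comparison, a call lost in 4 of 8 leave-one-out fits (adjusted p up to 0.11). Cacna1g took 51.5% ± 5.37 (SD, n = 4) of T-type TPM in wild type, 50.4% ± 5.15 (SD, n = 4) in Acadl Het / Acadvl wt, 41.7% ± 8.95 (SD, n = 3) in Acadl Het / Acadvl Het, 18.3% ± 5.95 (SD, n = 4) in Acadl Het / Acadvl KO, 36.5% ± 3.88 (SD, n = 4) in Acadl KO / Acadvl wt and 36.0% ± 7.92 (SD, n = 5) in Acadl KO / Acadvl Het. The Acadl Het / Acadvl Het libraries overlapped in this share with both Acadl KO genotypes. Reads of Cacna1h and of the opposite-strand gene Tpsg1 cannot be told apart over 3.79% of its exon bases, since counting ignored strand.

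Both genes of the cardiac G-protein-gated potassium channel fell in every genotype with a KO label. Kcnj3 (Kir3.1, chr2:55435970-55598145, plus strand, mm10) and Kcnj5 (Kir3.4, chr9:32314783-32344237, minus strand, mm10) form the channel that acetylcholine opens. Kcnj3 measured 69.5, 84.9, 50.7 and 61.3 CPM in wild type, 77.1, 70.8, 83.8 and 59.2 in Acadl Het / Acadvl wt and 69.1, 77.6 and 55.8 in Acadl Het / Acadvl Het. For Kcnj3, the KO-labelled values were 14.6, 19.5, 23.3 and 29.2 CPM in Acadl Het / Acadvl KO, 19.9, 20.001, 32.8 and 22.1 in Acadl KO / Acadvl wt and 19.3, 15.2, 21.3, 25.4 and 15.8 in Acadl KO / Acadvl Het. The lowest library without a KO label, wild-type replicate 3 at 50.7 CPM, lay above the highest with one, Acadl KO / Acadvl wt replicate 3 at 32.8 CPM. Kcnj3 changed by -1.50 (SE 0.22, adjusted p = 3.22e-05), -1.71 (SE 0.15, adjusted p = 3.38e-08) and -1.75 (SE 0.22, adjusted p = 1.36e-05) in the wild-type, heterozygote and Acadvl comparisons.

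Kcnj5 measured 64.6, 74.5, 67.0 and 76.2 CPM in wild type, 71.3, 66.7, 66.4 and 44.9 in Acadl Het / Acadvl wt and 69.3, 81.5 and 62.7 in Acadl Het / Acadvl Het. For Kcnj5, the KO-labelled values were 13.1, 20.4, 33.5 and 37.0 CPM in Acadl Het / Acadvl KO, 17.3, 10.4, 28.8 and 20.7 in Acadl KO / Acadvl wt and 20.6, 19.4, 16.8, 21.2 and 9.69 in Acadl KO / Acadvl Het. Again the sets with and without a KO label did not overlap, at 44.9 CPM for the lowest without and 37.0 CPM for the highest with. The changes were -1.87 (SE 0.30, adjusted p = 0.000109), -1.85 (SE 0.21, adjusted p = 8.01e-07) and -1.26 (SE 0.30, adjusted p = 0.00417). Neither gene was called between the knockouts, at 0.13 (SE 0.22, adjusted p = 0.769) for Kcnj3 and -0.43 (SE 0.30, adjusted p = 0.411) for Kcnj5. Their summed TPM was 66.4 ± 9.29 (SD, n = 4) in wild type, 64.1 ± 11.04 (SD, n = 4) in Acadl Het / Acadvl wt, 60.9 ± 11.1 (SD, n = 3) in Acadl Het / Acadvl Het, 23.2 ± 9.34 (SD, n = 4) in Acadl Het / Acadvl KO, 19.1 ± 6.55 (SD, n = 4) in Acadl KO / Acadvl wt and 16.3 ± 3.73 (SD, n = 5) in Acadl KO / Acadvl Het. The mean share of Kcnj3 in it lay between 43.1% and 52.4%.

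Because these channels are known best from atrial cells, the atrial marker list was read in the same libraries. Of its 10 genes, 0 rose and 1 fell in the wild-type comparison, 0 rose and 4 fell in the heterozygote comparison, and 0 rose and 1 fell in the Acadvl comparison. The summed level of the list ranged from 348.1 to 459.8 CPM in wild type, 267.3 to 648.8 in Acadl Het / Acadvl wt, 400.7 to 433 in Acadl Het / Acadvl Het, 505.2 to 689.3 in Acadl Het / Acadvl KO, 238.5 to 354.1 in Acadl KO / Acadvl wt and 219.9 to 2042 in Acadl KO / Acadvl Het. By genotype means, most of the sum was Nppa, the atrial natriuretic peptide gene, with 1922 CPM in the library with the highest sum, Acadl KO / Acadvl Het replicate 2. Myl4, Myl7 and Sln averaged 16.8, 8.67 and 2.61 CPM in Acadl KO / Acadvl Het, the lowest of the 6 genotypes, and 24.2, 14.0 and 5.51 CPM in wild type. They were highest in the heterozygotes, at 49.8, 29.2 and 13.2 CPM in Acadl Het / Acadvl wt and 47.8, 29.1 and 12.8 in Acadl Het / Acadvl Het. The means were 35.6, 15.9 and 6.83 CPM in Acadl Het / Acadvl KO and 22.5, 12.9 and 4.72 in Acadl KO / Acadvl wt. None of the list was at 0. Wild-type replicate 3 had 5.94 CPM of Myl7, the atrial myosin light chain, with 50.7 CPM of Kcnj3. Acadl Het / Acadvl KO replicate 3 had 33.2 CPM of Myl7 with 23.3 CPM of Kcnj3, and Acadl KO / Acadvl Het replicate 3 had 25.1 CPM of Myl7 with 21.3 CPM of Kcnj3. The 3 Acadl Het / Acadvl Het libraries, at 26.5 to 33.4 CPM of Myl7, had 55.8 to 77.6 CPM of Kcnj3. Other libraries were low or high in both genes. Acadl KO / Acadvl Het replicate 5 had 1.34 CPM of Myl7 with 15.8 CPM of Kcnj3, and Acadl KO / Acadvl wt replicate 4 had 3.22 with 22.1. Acadl Het / Acadvl wt replicate 3 had 63.8 CPM of Myl7 with 83.8 CPM of Kcnj3. All these libraries were picked as examples. The part of atrial tissue in the result was not tested.

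**Figure D3:**
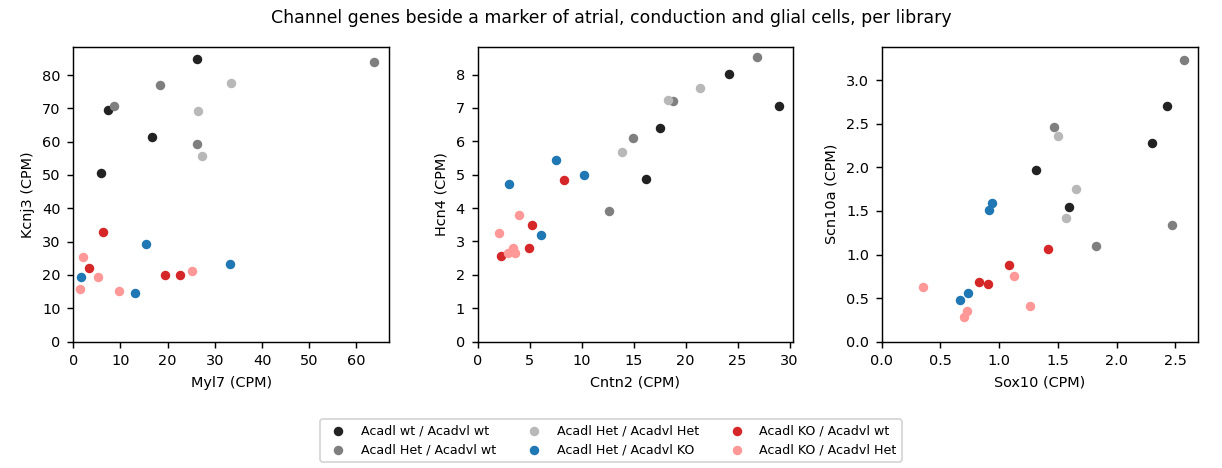
Level of an ion channel gene (vertical axis, CPM) against a cell type marker (horizontal axis, CPM), 1 point per library, coloured by genotype: Kcnj3 with the atrial Myl7, Hcn4 with the conduction marker Cntn2, and Scn10a with the glial Sox10. Kcnj3 lies at or below 32.8 CPM with a KO label and at or above 50.7 CPM without one, and 5 KO-labelled libraries have less Myl7 than any library without the label. Pooled over the genotypes, libraries low in Hcn4 and Scn10a tend to be low in Cntn2 and Sox10, 1 marker picked per list. Other markers of these lists, such as Tbx3, went the other way. Single libraries depart from the tendency. Acadl KO / Acadvl Het replicate 3 had 1.26 CPM of Sox10 with 0.412 of Scn10a, and Acadl Het / Acadvl KO replicate 4 had 0.938 with 1.60.

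Inward rectifiers of the Kir2 family, which hold the resting potential of the ventricle, fell in their 2 abundant members. Kcnj12 measured 29.6, 30.2, 39.7 and 45.6 CPM in wild type, 33.1, 39.9, 34.7 and 26.4 in Acadl Het / Acadvl wt and 35.9, 33.9 and 35.8 in Acadl Het / Acadvl Het. For Kcnj12, the KO-labelled values were 15.1, 19.1, 18.02 and 21.3 CPM in Acadl Het / Acadvl KO, 17.4, 16.7, 17.0 and 17.0 in Acadl KO / Acadvl wt and 17.4, 24.2, 21.9, 19.8 and 22.7 in Acadl KO / Acadvl Het. Kcnj12 (Kir2.2) changed by -1.06 (SE 0.14, adjusted p = 8.67e-06), -0.85 (SE 0.10, adjusted p = 4.22e-07) and -0.85 (SE 0.14, adjusted p = 0.000126), and every library with a KO label lay below every library without one. Kcnj2 (Kir2.1) changed by -0.60 (SE 0.19, adjusted p = 0.0202), -0.71 (SE 0.14, adjusted p = 0.000245) and -0.76 (SE 0.20, adjusted p = 0.0077). It stood at 42.7, 58.5, 34.9 and 57.6 CPM in wild type and 38.6, 33.6, 21.2 and 35.3 in Acadl KO / Acadvl wt, and these overlapped. The wild-type call of Kcnj2 was lost without wild-type replicate 2, wild-type replicate 4 or Acadl KO / Acadvl wt replicate 3 (adjusted p up to 0.0935).

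Kcnj4 (Kir2.3, chr15:79483714-79505241, minus strand, mm10), described here after its values were seen, was the scarce member of the family and lay on the other side. Kcnj4 measured 0.196, 0.223, 0.244 and 0.211 CPM in wild type, 0.411, 0.219, 0.134 and 0.304 in Acadl Het / Acadvl wt and 0.253, 0.197 and 0.0987 in Acadl Het / Acadvl Het. For Kcnj4, the KO-labelled values were 0.755, 1.12, 0.639 and 1.57 CPM in Acadl Het / Acadvl KO, 1.17, 1.09, 0.858 and 1.30 in Acadl KO / Acadvl wt and 1.21, 0.504, 0.946, 0.989 and 0.875 in Acadl KO / Acadvl Het. No KO-labelled library overlapped with one without the label. The log2 change was 2.38 (SE 0.34), 2.21 (SE 0.26) and 2.02 (SE 0.34), given as a description. Per length, Kcnj4 made up 0.631% ± 0.117 (SD, n = 4) of Kir2 TPM in wild type, 0.768% ± 0.328 (SD, n = 4) in Acadl Het / Acadvl wt, 0.520% ± 0.209 (SD, n = 3) in Acadl Het / Acadvl Het, 4.86% ± 1.57 (SD, n = 4) in Acadl Het / Acadvl KO, 5.19% ± 0.380 (SD, n = 4) in Acadl KO / Acadvl wt and 4.35% ± 1.41 (SD, n = 5) in Acadl KO / Acadvl Het. The summed Kir2 TPM was 38.2 ± 6.64 (SD, n = 4) in wild type, 22.4 ± 3.64 (SD, n = 4) in Acadl Het / Acadvl KO and 21.2 ± 3.23 (SD, n = 4) in Acadl KO / Acadvl wt, so the family as a whole lay lower.

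**Figure D4:**
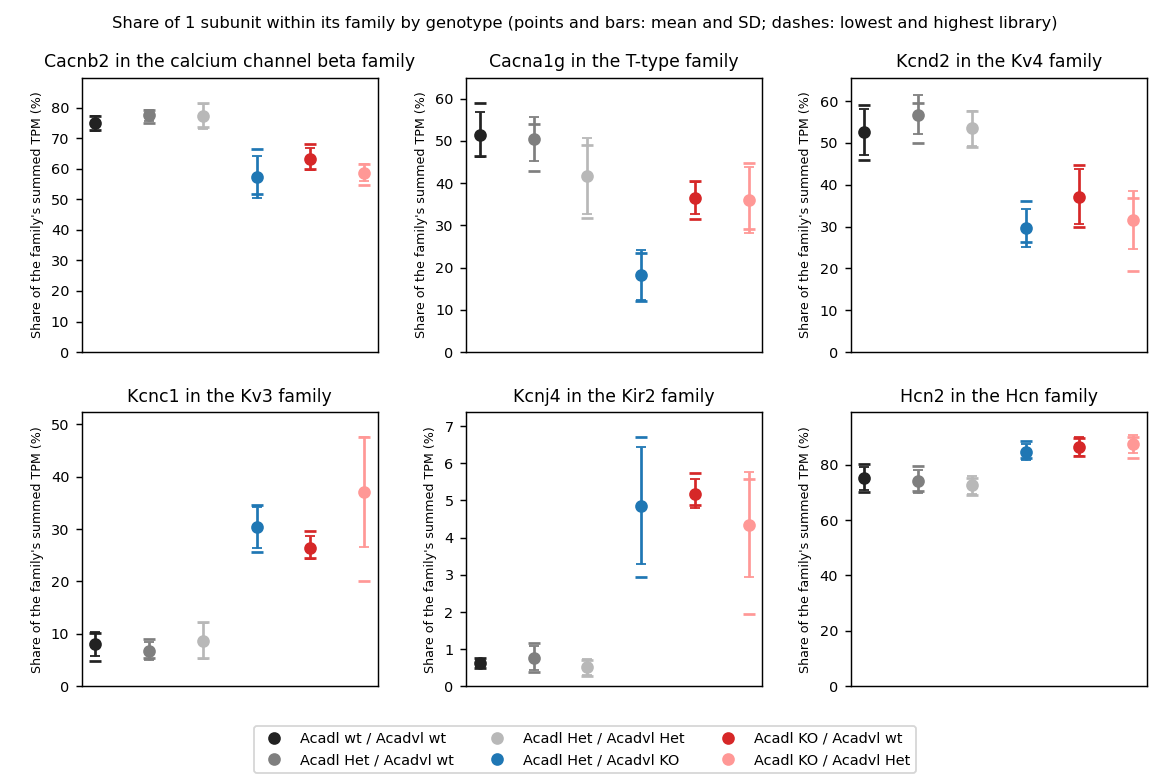
Share of 6 genes in the summed TPM of their channel family (percent) by genotype, as mean with SD and the lowest and highest library. By their means, Cacnb2, Kcnd2 and Cacna1g make up less, and Kcnc1, Kcnj4 and Hcn2 more, of their families in the 3 genotypes with a KO label, and for Cacna1g the libraries of Acadl Het / Acadvl Het overlap with both Acadl KO genotypes.

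Kcnj11 (Kir6.2), the pore of the ATP-sensitive potassium channel that opens when ATP is low, was among the few abundant channel genes that rose. It measured 173, 185, 208 and 197 CPM in wild type and 227, 239, 211 and 226 in Acadl KO / Acadvl wt, with no overlap. The rise was small, 0.24 (SE 0.07, adjusted p = 0.0151) in the wild-type comparison and 0.32 (SE 0.05, adjusted p = 4.49e-05) in the heterozygote comparison, and 0.16 (SE 0.07, adjusted p = 0.132) in the Acadvl comparison, where it was not called. The wild-type call was lost without wild-type replicate 1 (adjusted p = 0.0698). Kcnj8 (Kir6.1), the vascular ATP-sensitive pore, was not called in any comparison, and neither was Kcnk3 (TASK-1), a background potassium channel, whose log2 change was -0.08 in the heterozygote comparison and -0.08 in the Acadvl comparison. Reads over 6.01% of the Kcnk3 exon bases are shared with Gm9899 on the opposite strand.

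Genes of the transient outward current, which shapes early repolarisation in the mouse ventricle, moved unequally. Kcnd2 (Kv4.2, chr6:21216109-21729805, plus strand, mm10) is one of its 2 main pores. Kcnd2 measured 17.97, 26.5, 16.5 and 22.2 CPM in wild type, 25.7, 25.7, 24.6 and 17.7 in Acadl Het / Acadvl wt and 19.0, 25.2 and 18.4 in Acadl Het / Acadvl Het. For Kcnd2, the KO-labelled values were 7.38, 8.12, 6.25 and 11.5 CPM in Acadl Het / Acadvl KO, 9.88, 11.8, 13.6 and 9.73 in Acadl KO / Acadvl wt and 9.97, 3.93, 9.002, 8.77 and 10.2 in Acadl KO / Acadvl Het. All libraries with a KO label lay below all those without. Kcnd2 changed by -0.89 (SE 0.24, adjusted p = 0.00601), -1.19 (SE 0.17, adjusted p = 7.17e-06) and -1.50 (SE 0.24, adjusted p = 0.000146). Kcnd3 (Kv4.3), the other pore, was not called, with log2 changes of 0.09, 0.08 and 0.18. Kcnd2 took 52.6% ± 5.43 (SD, n = 4) of the Kv4 TPM in wild type, 56.7% ± 4.64 (SD, n = 4) in Acadl Het / Acadvl wt and 53.5% ± 4.27 (SD, n = 3) in Acadl Het / Acadvl Het, but 29.6% ± 4.57 (SD, n = 4) in Acadl Het / Acadvl KO, 37.2% ± 6.66 (SD, n = 4) in Acadl KO / Acadvl wt and 31.6% ± 6.95 (SD, n = 5) in Acadl KO / Acadvl Het.

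Kcnip2 (KChIP2), the accessory subunit of Kv4 channels and the member with the highest TPM, was not called. Its level was 264, 265, 279 and 249.8 CPM in wild type and 198, 175, 243 and 228 in Acadl KO / Acadvl wt, which did not overlap, yet its change of -0.33 (SE 0.15, adjusted p = 0.093) missed the threshold. Kcna4 (Kv1.4), the pore of the slow transient outward current, was scarce. Kcna4 measured 1.42, 1.85, 1.12 and 1.34 CPM in wild type, 1.37, 1.17, 1.23 and 1.20 in Acadl Het / Acadvl wt and 1.44, 1.72 and 1.53 in Acadl Het / Acadvl Het. For Kcna4, the KO-labelled values were 0.195, 0.134, 0.548 and 0.329 CPM in Acadl Het / Acadvl KO, 0.107, 0.132, 0.555 and 0.118 in Acadl KO / Acadvl wt and 0.144, 0.755, 0.510, 0.443 and 0.0937 in Acadl KO / Acadvl Het. No library with a KO label reached the lowest library without one, and the log2 changes were -2.69 (SE 0.42), -2.22 (SE 0.28) and -2.08 (SE 0.40), given as a description. Among the Acadl KO / Acadvl wt libraries, replicate 3 was higher than the other 3.

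A pair of silent subunits fell together. Kcng2 (Kv6.2) and Kcnv2 (Kv8.2) make no current alone and modify the delayed rectifier channels they join. Kcng2 ranged from 92.96 to 112 CPM in wild type and from 61.9 to 75.0 in Acadl KO / Acadvl wt, and from 88.4 to 112 in Acadl Het / Acadvl wt and 73.3 to 85.6 in Acadl Het / Acadvl KO. Kcng2 changed by -0.61 (SE 0.10, adjusted p = 8.49e-05), -0.56 (SE 0.07, adjusted p = 1.33e-06) and -0.36 (SE 0.10, adjusted p = 0.0092). Kcnv2 changed by -1.08 (SE 0.27, adjusted p = 0.00386), -1.29 (SE 0.19, adjusted p = 1.43e-05) and -1.71 (SE 0.28, adjusted p = 0.000169). It ranged from 13.5 to 24.2 CPM in wild type and from 7.34 to 9.56 in Acadl KO / Acadvl wt, and from 14.6 to 21.3 in Acadl Het / Acadvl wt and 3.68 to 6.87 in Acadl Het / Acadvl KO. In both genes these pairs of groups did not overlap. The wild-type and heterozygote calls of Kcnv2 were lost without the libraries above 10 CPM of Alb, where the heterozygote comparison leaves out both Acadvl Het genotypes.

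Some of the main repolarising pores stayed below the threshold. Kcna5 (Kv1.5) and Kcnh2 (Kv11.1, the rapid delayed rectifier) were not called in any of the 4 comparisons, at log2 changes of -0.42 and -0.23 against wild type and 0.09 and 0.11 in the Acadvl comparison. Kcnq1 (Kv7.1), the slow delayed rectifier, changed by 0.36 (SE 0.11, adjusted p = 0.0196) in the Acadvl comparison alone, a call lost without Acadl Het / Acadvl wt replicate 2 or Acadl Het / Acadvl KO replicate 4 (adjusted p up to 0.102). Its change of 0.24 in the wild-type comparison was not called, and the difference between these comparisons was not tested.

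Some potassium channel genes of low level rose. Kcnc1 (Kv3.1, chr7:46396468-46438704, plus strand, mm10), a fast delayed rectifier known best from rapidly firing neurons, had the largest rise of the called members in the heterozygote and Acadvl comparisons. Kcnc1 measured 0.932, 0.982, 1.41 and 0.613 CPM in wild type, 0.686, 0.756, 0.653 and 1.20 in Acadl Het / Acadvl wt and 1.59, 0.811 and 0.740 in Acadl Het / Acadvl Het. For Kcnc1, the KO-labelled values were 8.48, 5.64, 5.68 and 5.45 CPM in Acadl Het / Acadvl KO, 5.20, 5.54, 4.01 and 5.78 in Acadl KO / Acadvl wt and 10.5, 8.11, 3.66, 8.28 and 7.94 in Acadl KO / Acadvl Het. The highest library without a KO label stood at 1.59 CPM and the lowest with one at 3.66 CPM. Kcnc1 changed by 2.38 (SE 0.31, adjusted p = 9.59e-06), 2.75 (SE 0.23, adjusted p = 1.24e-08) and 2.93 (SE 0.32, adjusted p = 3.06e-06). Its share of Kv3 TPM was 8.06% ± 2.22 (SD, n = 4) in wild type, 6.75% ± 1.65 (SD, n = 4) in Acadl Het / Acadvl wt, 8.64% ± 3.50 (SD, n = 3) in Acadl Het / Acadvl Het, 30.3% ± 3.89 (SD, n = 4) in Acadl Het / Acadvl KO, 26.5% ± 2.19 (SD, n = 4) in Acadl KO / Acadvl wt and 37.1% ± 10.4 (SD, n = 5) in Acadl KO / Acadvl Het. Of the list of 12 neuron markers, 6 averaged under 0.1 CPM. Of the 6 tested, 1 rose and 2 fell in the wild-type comparison. In the heterozygote comparison 0 rose and 4 fell, and in the Acadvl comparison 0 rose and 1 fell.

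Kcnc4 (Kv3.4), its relative, changed by 1.31 (SE 0.41, adjusted p = 0.0168) against wild type and 1.19 (SE 0.30, adjusted p = 0.00228) in the heterozygote comparison, and 0.70 (SE 0.41, adjusted p = 0.225) in the Acadvl comparison did not pass. The wild-type call was lost without wild-type replicate 1 or Acadl KO / Acadvl wt replicate 2 or 4 (adjusted p up to 0.0811). Kcne1, the beta subunit that slows Kv7.1, stood at 1.20, 1.18, 1.07 and 1.38 CPM in wild type and 1.84, 1.91, 2.62 and 1.80 in Acadl KO / Acadvl wt, with no overlap, a change of 0.70 (SE 0.23, adjusted p = 0.0193). That call was lost without wild-type replicate 1 or 2 or Acadl KO / Acadvl wt replicate 3 (adjusted p up to 0.0649), while the heterozygote comparison gave 0.73 (SE 0.16, adjusted p = 0.000601). Kcnq1ot1, an imprinted long non-coding RNA antisense to Kcnq1, changed by 0.70 (SE 0.17, adjusted p = 0.00246) and 0.49 (SE 0.12, adjusted p = 0.00157). Unstranded counting leaves 0.145% of its exon bases and 3.995% of those of Kcnq1 shared between them.

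The small-conductance calcium-activated genes split. Kcnn2 (SK2) fell by 1.27 (SE 0.24, adjusted p = 0.000381), 0.96 (SE 0.17, adjusted p = 8.9e-05) and 0.92 (SE 0.24, adjusted p = 0.00789) in the wild-type, heterozygote and Acadvl comparisons. Kcnn1 (SK1) rose, from 22.7 to 29.6 CPM in wild type to 30.5 to 36.3 in Acadl KO / Acadvl wt, a change of 0.40 (SE 0.15, adjusted p = 0.0464), and by 0.52 (SE 0.11, adjusted p = 0.000496) and 0.62 (SE 0.15, adjusted p = 0.00527) in the other 2. The wild-type call of Kcnn1 was lost in 6 of 8 leave-one-out fits (adjusted p up to 0.139). Reads of Kcnn2 and of A330093E20Rik on the opposite strand cannot be told apart over 13.9% of the Kcnn2 exon bases.

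The pacemaker channel genes differed by member. Hcn2, the main ventricular form, was not called in any comparison and took 72.6% to 87.4% of Hcn TPM in the 6 genotype means. Hcn4, the form that marks the sinus node and conduction system, fell. Hcn4 measured 4.88, 8.01, 6.41 and 7.05 CPM in wild type, 8.53, 7.19, 6.10 and 3.90 in Acadl Het / Acadvl wt and 5.67, 7.22 and 7.60 in Acadl Het / Acadvl Het. For Hcn4, the KO-labelled values were 3.19, 4.73, 4.996 and 5.45 CPM in Acadl Het / Acadvl KO, 3.49, 2.81, 4.84 and 2.56 in Acadl KO / Acadvl wt and 2.66, 3.80, 2.64, 3.25 and 2.81 in Acadl KO / Acadvl Het. It changed by -0.98 (SE 0.23, adjusted p = 0.00257) in the wild-type comparison and -1.04 (SE 0.17, adjusted p = 2.47e-05) in the heterozygote comparison, and -0.49 (SE 0.22, adjusted p = 0.118) in the Acadvl comparison, where libraries overlapped and it was not called. Acadl KO / Acadvl wt and wild type did not overlap.

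The conduction system markers did not all move one way. Of 7 tested, 0 rose and 3 fell in the wild-type comparison, 1 rose and 5 fell in the heterozygote comparison, and 0 rose and 2 fell in the Acadvl comparison. The contactin gene Cntn2, a Purkinje marker, ranged from 16.2 to 29.0 CPM in wild type, 12.6 to 26.8 in Acadl Het / Acadvl wt, 3.02 to 10.3 in Acadl Het / Acadvl KO and 2.23 to 8.35 in Acadl KO / Acadvl wt. Tbx3, a conduction system transcription factor, averaged 27.0 CPM in wild type, 38.4 in Acadl KO / Acadvl wt and 45.7 in Acadl KO / Acadvl Het, and it was the marker called higher in the heterozygote comparison. The summed list ranged from 248.8 to 273.5 CPM in wild type and from 209.3 to 260.8 in Acadl KO / Acadvl wt, which overlapped. In Acadl KO / Acadvl Het it ranged from 155.6 to 226.5 CPM, below every wild-type library. The ranges were 217.9 to 291.3 CPM in Acadl Het / Acadvl wt, 252.8 to 312.3 in Acadl Het / Acadvl Het and 177.5 to 327.9 in Acadl Het / Acadvl KO. Isl1, Gjd3 and Vsnl1 of the list were under 0.1 CPM. The part of conduction tissue in the Hcn4 result was not tested.

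Among the abundant sodium channel genes, the beta subunit Scn4b, the skeletal muscle pore Scn4a and the sodium-sensing Scn7a were not called in any comparison.

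Scn10a (Nav1.8), known from sensory neurons and from the conduction system, was the sodium channel gene with the largest change. Scn10a measured 1.54, 2.70, 1.97 and 2.28 CPM in wild type, 3.24, 2.46, 1.34 and 1.103 in Acadl Het / Acadvl wt and 1.42, 2.36 and 1.75 in Acadl Het / Acadvl Het. For Scn10a, the KO-labelled values were 0.560, 0.481, 1.51 and 1.60 CPM in Acadl Het / Acadvl KO, 0.666, 0.874, 1.06 and 0.687 in Acadl KO / Acadvl wt and 0.347, 0.630, 0.412, 0.286 and 0.750 in Acadl KO / Acadvl Het. It changed by -1.43 (SE 0.37, adjusted p = 0.00471) and -1.61 (SE 0.28, adjusted p = 7.06e-05), and -0.94 (SE 0.36, adjusted p = 0.057) in the Acadvl comparison was not called. Wild type and Acadl KO / Acadvl wt did not overlap. The glial gene Sox10 moved with it and ranged from 1.31 to 2.43 CPM in wild type and 0.829 to 1.41 in Acadl KO / Acadvl wt. Of 10 Schwann cell and glial markers tested, 1 rose and 2 fell in the wild-type comparison, 1 rose and 3 fell in the heterozygote comparison, and 1 rose and 1 fell in the Acadvl comparison, while the summed level ranged from 75.1 to 85.5 CPM in wild type and 82.1 to 102.7 in Acadl KO / Acadvl wt. Their part in the Scn10a result was not tested. Kcna1 (Kv1.1), known from axons and named after its values were seen, changed by -0.96 (SE 0.26, adjusted p = 0.0113) in the Acadvl comparison, lost without Acadl Het / Acadvl wt replicate 3 (adjusted p = 0.056).

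The wild-type and Acadvl comparisons share no library, so their calls can be set side by side. Kcnj4 and Kcna4 are left out here, which leaves 77 members. Cacng6, Kcnq5 and Kcnrg stay in the counts and shares with the limit given above. Cacng6 averaged under 0.5 CPM in Acadl Het / Acadvl KO, and Kcnq5 and Kcnrg did so in Acadl KO / Acadvl wt. In those comparisons only the other side met the threshold. Lower in both were 14, 66.7% of the 21 lower in the wild-type comparison and 82.4% of the 17 lower in the Acadvl comparison. Among them were Cacna1g, Cacna2d1, Cacnb2, Cacng6, Kcnd2, Kcng2, Kcnj12, Kcnj2, Kcnj3, Kcnj5, Kcnn2, Kcnq5 and Kcnv2. Over all genes the same shares were 44.7% and 68.2%. Higher in both were 3, 42.9% of 7 and 33.3% of 9, with Kcnc1 and Kcnn1 among them, where all genes gave 48.6% and 74%. Cacnb1 and Cacnb3 were called lower in the first and higher in the second, 2 of 8 such genes among the 15804 tested. Their Acadvl calls were lost in 1 of 8 leave-one-out fits for Cacnb1 and in 6 of 8 for Cacnb3. The sign was the same for 57 of the 77 members (74.0%) and for 76.1% of all genes. Over the 77 members the 2 sets of log2 changes had Pearson's r = 0.82 across genes, and over all genes 0.67. This is a description only, since genes are not independent replicates and the heart, batches and scaling are common to both.

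**Figure D5:**
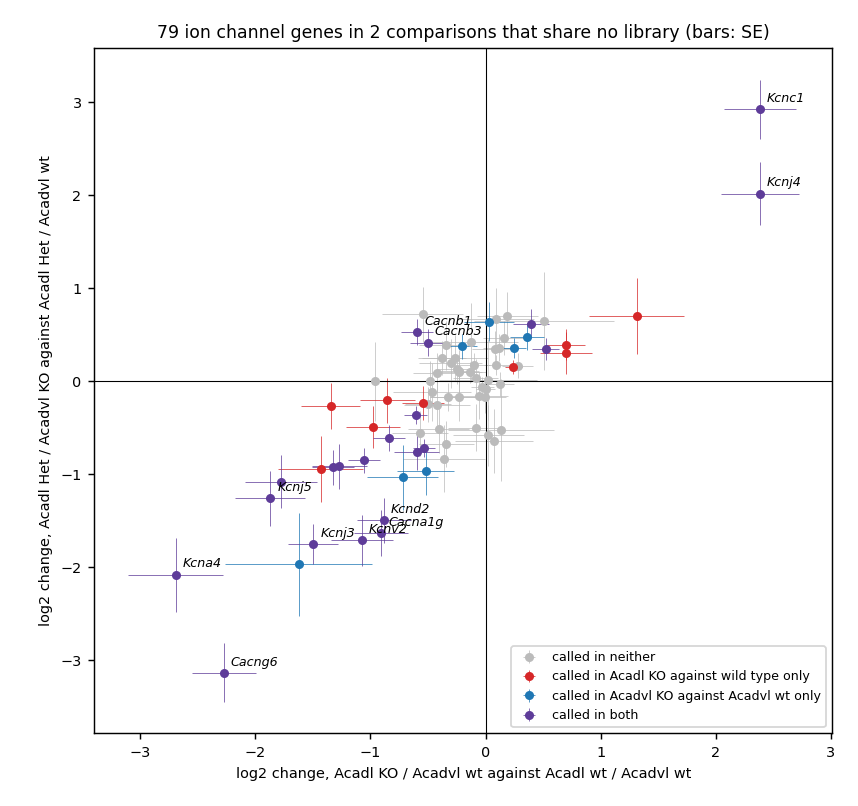
Log2 change of the 79 members in the wild-type comparison (horizontal axis) and the Acadvl comparison (vertical axis), each with its SE. Most named genes lie near the diagonal, with Cacng6, Kcnj3 and Kcnj5 at the lower left, Kcnc1 and Kcnj4 at the upper right, and Cacnb1 and Cacnb3 at the upper left.

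Between the knockouts directly, 6 members were called, 1 higher and 5 lower in Acadl KO / Acadvl wt, beside 4.43% of all genes (1.77% higher and 2.66% lower). They were Cacna1g, Cacnb1 and Cacnb3, given above, Kcnab2, and Kcnk13 and Kcnn4, both named after their values were seen. Libraries did not overlap for 6 members higher and 5 lower, beside 4.26% and 3.78% of all genes. Kcnab2, a beta subunit of Kv1 channels that binds NADPH, stood at 2.19, 2.06, 2.85 and 3.24 CPM in Acadl Het / Acadvl KO and 1.33, 0.927, 1.34 and 1.30 in Acadl KO / Acadvl wt, with no overlap. It changed by -1.08 (SE 0.20, adjusted p = 0.00545) between the knockouts and -0.88 (SE 0.15, adjusted p = 4.67e-05) in the heterozygote comparison. These calls depend on the pooled fit: 0 members were called when only these 2 genotypes were fitted (edgeR), where the spread rests on 8 libraries, and 0 when the 6 libraries with over 10 CPM of Alb, a liver gene, were left out. In the full fit 19 had an unadjusted p under 0.05. Kcnk13 changed by -0.95 (SE 0.27, adjusted p = 0.0481) and was lost in 6 of 8 leave-one-out fits (adjusted p up to 0.161). Kcnn4, a calcium-activated channel of blood and immune cells, changed by -1.26 (SE 0.33, adjusted p = 0.0355) and was lost in 4 of 8 (adjusted p up to 0.135). Kcnn4 averaged under 0.5 CPM in Acadl KO / Acadvl wt, so only the Acadl Het / Acadvl KO side met the threshold. Of the leukocyte markers, 0 rose and 2 fell in this comparison, and their part in the Kcnn4 result was not tested.

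For the heterozygous labels, no member was called with edgeR. The edgeR test of Acadl Het / Acadvl wt against wild type called 0 members and 0 of all genes, with 3 members at an unadjusted p under 0.05, and DESeq2 and limma-voom called 0 members. For Acadvl Het against Acadvl wt, averaged over the Acadl Het and Acadl KO backgrounds, 0 members were called beside 0.0127% of all genes, with 8 members at an unadjusted p under 0.05. The interaction of the Acadl KO label with Acadvl Het called 0 members with edgeR, 5 at an unadjusted p under 0.05. DESeq2 called 1, Kcne4, an inhibitory subunit of Kv1 and Kv7 channels, which was named after its values were seen and had an adjusted p = 0.167 in edgeR. A miss of the threshold does not show that these genotypes were alike.

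Other members called in the wild-type comparison are named here after their values were seen. Kcnq5 (Kv7.5) fell by 1.78 (SE 0.31, adjusted p = 0.000179), Kcnrg, which regulates Kv1 assembly, by 1.35 (SE 0.26, adjusted p = 0.000429), Kcnd3os by 0.85 (SE 0.24, adjusted p = 0.00842) and the P/Q-type calcium pore Cacna1a by 0.54 (SE 0.18, adjusted p = 0.0235). The Cacna1a call was lost without wild-type replicate 4 and without replicate 1 or 2 of Acadl KO / Acadvl wt (adjusted p up to 0.0965). Kcnd3os overlaps Kcnd3 over 15.1% of its exon bases. In the heterozygote comparison alone, the calcium pores Cacna1s, by 0.60 (SE 0.17, adjusted p = 0.0057), and Cacna1d, by 0.64 (SE 0.14, adjusted p = 0.000648), were also called lower, and 50.6% of the Cacna1d exon bases are shared with Chdh on the opposite strand. The axonal Kcna6 (Kv1.6) changed by -0.61 (SE 0.24, adjusted p = 0.0332) there and -1.03 (SE 0.35, adjusted p = 0.0354) in the Acadvl comparison, calls lost in 7 of 16 and 6 of 8 leave-one-out fits. Kcnip3, which encodes a calcium-binding KChIP, changed by 0.79 (SE 0.24, adjusted p = 0.00917) in the heterozygote comparison. The last calls of that comparison, also named after their values were seen, were Kcnd1 at -0.72, Cacna2d2 at -0.62, Scn3b at -0.59, Kcnn3 at -0.57, Kcna7 at 0.26 and Kcne4 at 0.30 on the log2 scale. Of the 16 leave-one-out fits, the calls of Kcna7 and Kcne4 were each lost in 7 (adjusted p up to 0.0946 and 0.17), that of Kcnn3 in 2, and those of Kcnd1 and Scn3b in 1 each. In all, 49 of the 79 members were called in at least 1 of the 4 comparisons, beside 61.3% of all genes. The other 30 had log2 changes between -0.96 and 1.04.

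Genes that act with these channels were read from lists of non-members. Of 23 channel partners tested, 3 rose and 8 fell in the wild-type comparison, 3 rose and 11 fell in the heterozygote comparison, and 2 rose and 8 fell in the Acadvl comparison. Among them Fgf12, a sodium channel-binding factor, changed by -1.42 (SE 0.53, adjusted p = 0.0398) against wild type, and Popdc3, a cyclic AMP-binding membrane protein, by 0.88 (SE 0.17, adjusted p = 0.000578). Of 23 calcium-cycling genes, 4 rose and 5 fell, 4 rose and 9 fell, and 4 rose and 5 fell in the same order. Casq1, a calcium-storage protein of the sarcoplasmic reticulum, changed by -1.97 (SE 0.25, adjusted p = 6.56e-06) and -1.80 (SE 0.25, adjusted p = 3.17e-05) in the wild-type and Acadvl comparisons. Of 11 pump and junction genes, 2 rose and 4 fell, 3 rose and 4 fell, and 2 rose and 2 fell. Gja1, the main ventricular connexin, changed by -1.01 (SE 0.30, adjusted p = 0.0119) and -1.03 (SE 0.29, adjusted p = 0.0148), and Gja5, the connexin of atria and conduction fibres, by -0.99 (SE 0.17, adjusted p = 0.000131) against wild type. Of 23 other channel genes, 5 rose and 4 fell, 9 rose and 7 fell, and 5 rose and 2 fell. Clcn1, a muscle chloride channel, changed by -1.52 (SE 0.30, adjusted p = 0.000613) and -2.18 (SE 0.33, adjusted p = 9.35e-05). Of 16 transcription factors known to regulate channel genes, 1 rose and 1 fell, 3 rose and 2 fell, and 1 rose and 0 fell, with Nfatc3 at 0.57 (SE 0.09, adjusted p = 4.23e-05) against wild type.

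Library totals ranged from 34320838 to 51743114 counts. Acadl Het / Acadvl Het replicate 1 had 17.3% of its counts in Rn45s, beside at most 0.558% elsewhere, and 6 libraries held over 10 CPM of the liver gene Alb: all 3 of Acadl Het / Acadvl Het, Acadl Het / Acadvl KO replicate 2 and Acadl KO / Acadvl wt replicates 2 and 3. Heart muscle markers were present in every library, with a summed level of 78610.3 to 100824 CPM, and the ventricular Hand1 and the skeletal Myh1, Myh2 and Myh4 were under 0.1 CPM. The 2 RNA isolation batches hold 9 and 15 libraries, and each genotype is in both. Within batch 2 alone and within batch 1 alone, no member called in the 4 comparisons changed sign. In batch 1, where Acadl KO / Acadvl wt and Acadl Het / Acadvl KO have 1 library each, 0 members were called in the wild-type comparison, 22 in the heterozygote comparison and 2 in the Acadvl comparison.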

How the data were processed

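Per the file headers, the authors deposited raw read counts per gene, 1 file per library, made with featureCounts 1.5.2 on UCSC mm10 genes from primary alignments. Strand was ignored, and reads over more than 1 gene were counted for every one of them. STAR 2.5.1b and featureCounts 1.5.3, with mm10 and GRCm38 as builds, are named in the submitters' processing notes. The labels' protocols give polyA capture and single-end HiSeq reads. The table of the whole series was not used, and 0 columns of other samples were present.

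The counts were fitted with edgeR 4.0.16 under R 4.3.3: filterByExpr on the 6 genotypes left 15804 genes, TMM factors scaled the totals, and all 24 libraries entered 1 robust quasi-likelihood fit (glmQLFit with legacy off) of genotype and RNA isolation batch. P-values are two-sided and Benjamini-Hochberg adjusted over the 15804 genes, and 0.05 is the threshold. TPM was computed here from the deposited counts and exon lengths. Alternatives used DESeq2 1.42.0, limma-voom (limma 3.58.1), other filters and scalings, single batches, and each library left out. The fit was tested on simulated data.

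Genes named were the 12 most abundant members, the 25 members of a cardiac current list, and per comparison the 8 rising and 8 falling called members with the largest change among those with a mean of at least 1 CPM. From each list of non-members up to 3 called genes per comparison could be named. Values of some members are not reported here, though counts include them. The members, lists and rule were chosen with earlier results of these data known. Library totals of 34320838 to 51743114 counts set the precision. Replicates were numbered in accession order, which pairs nothing.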

Additional observations from a re-analysis of the deposited data

Results flagged for a closer look

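Within a genotype of 4 or 5 libraries, 1 library was flagged where it stood apart from the rest by the Dixon criterion at 95%. This was applied to 52 named members in 260 groups of gene and genotype and flagged 17. Chance flags about 1 in 20 groups. Acadl KO / Acadvl wt replicate 3 was the high library for Kcnj3 at 32.8 CPM (others 19.9 to 22.1), Kcne1 at 2.62 CPM and Kcna4 at 0.555 CPM. Replicate 2 of that genotype was high for Kcnip3 at 5.30 CPM and low for Kcnab2 at 0.927 CPM. In Acadl KO / Acadvl Het, replicate 2 was high for Kcnq1 at 38.7 CPM and low for Kcnd2 at 3.93 CPM, and replicate 5 was high for Kcnip3 at 8.50 CPM. In Acadl Het / Acadvl KO, replicate 4 was high for Cacnb1 at 15.4 CPM, and replicate 1 was high for Kcnc1 at 8.48 CPM and low for Cacna1a at 2.87 CPM. In Acadl Het / Acadvl wt, replicate 4 was low for Kcnd2 at 17.7 CPM, replicate 3 was high for Kcna1 at 10.2 CPM and Scn3b at 1.34 CPM, replicate 1 was high for Kcnd1 at 1.45 CPM, and replicate 2 was low for Kcnrg at 0.683 CPM. In wild type, replicate 1 was high for Kcnn3 at 2.11 CPM. Acadl KO / Acadvl Het replicate 2 also held the highest Nppa level of all libraries, 1922 CPM.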

How the results depend on the processing

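No paired analysis was possible because replicate numbers were given in accession order and pair nothing. The first number in the sample titles recurs in several libraries, but the sources used here do not say what it stands for, so it served as no block. The cause of the changes below was not tested. In batch 1 alone, the members called were 0 in the wild-type, 22 in the heterozygote, 2 in the Acadvl and 0 in the knockout-to-knockout comparison, and 11 for any difference among genotypes, beside 30, 42, 28, 6 and 45 in the full fit. Batch 1 has 9 libraries, with 1 in some genotypes, whose spread is assumed to be that of the other groups. In batch 2 alone, 1 was called between the knockouts. Fitting only the genotypes compared gave 0 between the knockouts. Without the 6 libraries above 10 CPM of Alb, 22 were called in the heterozygote comparison and 0 between the knockouts. The heterozygote comparison is altered there, since no Acadl Het / Acadvl Het library is left. It then sets Acadl KO / Acadvl wt, without replicates 2 and 3, against Acadl Het / Acadvl wt, and Acadl KO / Acadvl Het is not in it. Heterozygote calls lost there thus differ from the full fit in the genotypes compared as well as in the Alb libraries. Of the 30 wild-type calls, 9 were lost without the Alb libraries: Cacna1a, Cacna1g, Cacnb3, Kcnd3os, Kcne1, Kcnj11, Kcnj2, Kcnn1 and Kcnv2. The interaction could not be fitted there, and under DESeq2 it called 1 member. Leaving out 1 library in turn gave 26 to 32 calls in the wild-type, 37 to 43 in the heterozygote, 21 to 29 in the Acadvl and 2 to 6 in the knockout-to-knockout comparison, 40 to 45 for any difference, and 0 in the others. Between the knockouts the count was 2 without Acadl KO / Acadvl wt replicate 1 or 2 and 3 without Acadl Het / Acadvl KO replicate 3. Of the log2 changes that reversed, only Kcne4 was called in the full fit. In batch 1, Cacna1c at -0.051, Hcn4 at 0.14 and Scn10a at 0.40 reversed in the Acadvl comparison. Kcne4 stood at -0.060 in the altered heterozygote comparison without the Alb libraries. Kcnd3 reversed in the wild-type comparison, at -0.0034 without Acadl KO / Acadvl wt replicate 1, and reached up to 0.15 without another library. Of 246 genotype levels, 233 moved by less than 1 SD when TMM scaling was left out. Depth limits the scarce members most.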
